A study of Drosophila melanogaster with 3 samples.

Results

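The Mediator and TBP-associated factor (TAF) genes encode the subunits of the complexes that bring RNA polymerase II to promoters. Occupancy at these genes was mapped by chromatin immunoprecipitation and sequencing (ChIP-seq) of a CG44002-eGFP fusion protein, with an antibody to GFP, in whole prepupae of Drosophila melanogaster, with males and females pooled and age not stated. All 3 libraries came from 1 transgenic line, whose strain name cites CG34406 and whose transgene adds GFP to the C-terminal end of CG44002. Each library was 1 biological replicate of 1 group, so there was no contrast between conditions, and no result below carries a p-value. The members were chosen by gene name: protein-coding genes of the Ensembl annotation whose name starts with MED or Taf and a digit, plus kto, skd, CycC and Cdk8. This gave 44 of 13945 coding genes, of which 29 encode Mediator subunits and 15 encode TAFs or a TAF paralogue. Their state of occupancy was then selected on the same peak lists that are described here, namely the summits of the 7089 peaks that passed the authors' irreproducible discovery rate (IDR) filter. A gene is called bound below when such a summit was found no more than 500 bp from one of its annotated starts. These values are therefore a description of the genes and no test of them. In whole animals, fewer cells with occupancy and less occupancy per cell cannot be told apart.

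Mediator is a large modular coactivator. Its head and middle modules contact RNA polymerase II, its tail meets sequence-specific activators, and a separable kinase module made of Cdk8, Cyclin C, kohtalo (kto, the fly MED12) and skuld (skd, the fly MED13) governs its access to the polymerase. The TAFs surround the TATA-binding protein in the general factor TFIID, which recognises core promoters and nucleates the preinitiation complex. Several TAFs also belong to SAGA, a histone acetyltransferase coactivator.

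The 6 summit sequences printed here were rich in runs of A and T, and such runs were not counted at other summits. The lines that follow show the summit with 50 bases on either side for 6 members on 3L and 3R whose window lay clear of any annotated exon (RefSeq release 6 sequence, dm6, written 5′ to 3′ on the strand of the named gene), because they let the composition be seen directly. Capitals mark every uninterrupted run of 6 or more A or T. The windows lay at chr3L:654227-654327 for MED30, chr3R:18188921-18189021 for MED17, chr3R:5654934-5655034 for MED27, chr3R:4641693-4641793 for MED31, chr3L:16113612-16113712 for Taf4 and chr3L:21027765-21027865 for skd.
MED30: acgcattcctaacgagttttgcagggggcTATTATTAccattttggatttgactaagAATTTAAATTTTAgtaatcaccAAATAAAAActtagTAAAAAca
MED17: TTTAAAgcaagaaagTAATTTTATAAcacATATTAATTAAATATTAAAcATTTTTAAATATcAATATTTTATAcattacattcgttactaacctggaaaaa
MED27: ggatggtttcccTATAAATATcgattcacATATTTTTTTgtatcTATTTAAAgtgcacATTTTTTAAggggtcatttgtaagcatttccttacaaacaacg
MED31: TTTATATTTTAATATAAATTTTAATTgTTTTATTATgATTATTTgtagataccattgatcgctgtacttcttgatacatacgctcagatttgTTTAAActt
Taf4: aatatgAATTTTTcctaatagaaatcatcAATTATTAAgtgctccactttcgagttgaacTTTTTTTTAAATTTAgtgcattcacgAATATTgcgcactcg
skd: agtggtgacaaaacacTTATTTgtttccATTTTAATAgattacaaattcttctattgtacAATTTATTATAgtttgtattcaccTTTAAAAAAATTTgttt
The share of A and T in these windows was 70.3% for MED30, 83.2% for MED17, 69.3% for MED27, 78.2% for MED31, 70.3% for Taf4 and 78.2% for skd. The longest run had 26 bases, in the window of MED31, and each window held 4 or 5 such runs.

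A pair of members that were not bound is shown for comparison, picked for their central roles: MED14, the backbone that joins the Mediator modules, and Taf1, the largest TFIID subunit. Their windows were centred 150 bp upstream of the gene's start, at chr3L:593046-593146 and chr3R:6646689-6646789, with capitals as before.
MED14: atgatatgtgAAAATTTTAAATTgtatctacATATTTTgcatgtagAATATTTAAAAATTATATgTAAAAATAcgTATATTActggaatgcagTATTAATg
Taf1: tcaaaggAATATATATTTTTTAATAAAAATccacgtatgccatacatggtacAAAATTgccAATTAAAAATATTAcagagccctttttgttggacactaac
The window of MED14 held 80.2% A and T and a run of 18 bases, and that of Taf1 held 71.3% and a run of 23 bases. Long runs of A and T thus also stood upstream of this pair, at which no IDR summit was found. Both windows were richer in A and T than the median at this place over the 31 unbound members, 65.5%. That median was 73% over the 13 bound members. Runs were not counted at the other unbound members.

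Of the 44 genes, 13 were bound. They were MED4, MED6, MED7, MED8, MED16, MED17, MED27, MED30, MED31, skd, Taf2, Taf4 and Taf5. The bound share was 29.5% (95% exact binomial interval 16.8% to 45.2%, counting error only), and 19.5% of all coding genes were bound under the same rule. In the separate replicates, where the 7089 highest-signal peaks of each list (the top N) were used, 14, 16 and 12 members were bound in replicates 1, 2 and 3. This was 31.8% ± 4.55 (SD, n = 3), beside 20.8%, 20.7% and 20.0% of all coding genes in the same lists. In the top N of all 3 replicates there were 11 members, beside 14.5% of all coding genes. The share of members is above that of all coding genes in each list, but the interval of the member share includes 19.5%.

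**Figure D1:**
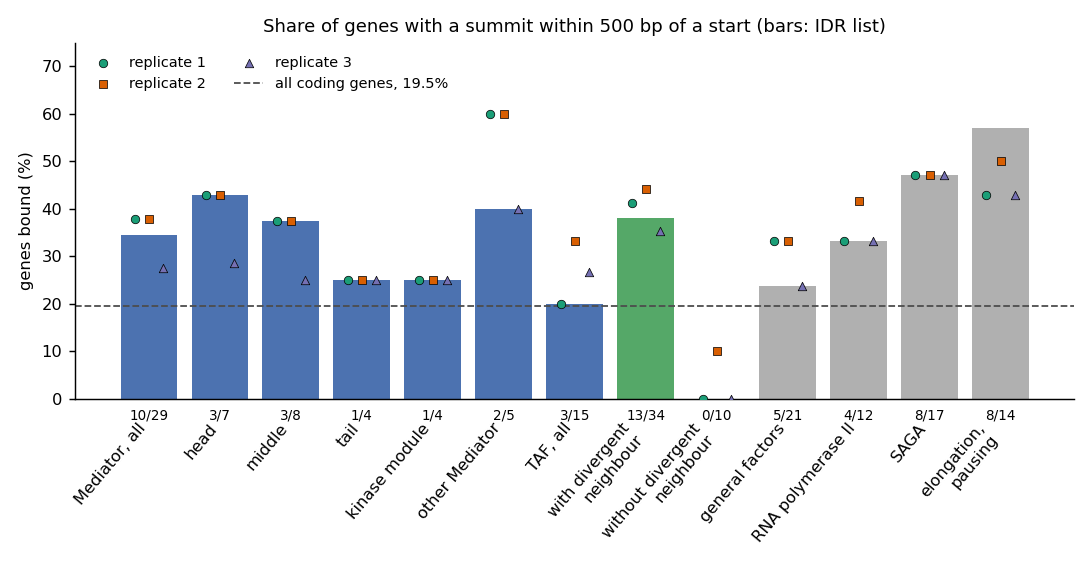
Bars give the percentage of genes with an IDR summit within 500 bp of a start, with the number bound and the number of genes under each bar. Points give the 3 replicates and the dashed line all coding genes. MED14 and Taf12L, classes of 1 gene each, are counted only in the totals. The members without a divergent neighbour have no bar, since 0 of 10 were bound.

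Among Mediator genes 10 of 29 (34.5%) were bound, beside 19.5% of all coding genes. The 95% exact binomial interval of the Mediator share, 17.9% to 54.3%, includes 19.5%. In the replicates the Mediator share was 34.5% ± 5.97 (SD, n = 3). When a summit counted only for the gene with the nearest start, 5 of 29 were bound, beside 14.8% of all coding genes. The head module, which contacts the polymerase, had 3 of 7 bound, namely MED6, MED8 and MED17, while MED11, MED18, MED20 and MED22 were not. The middle module had 3 of 8, namely MED4, MED7 and MED31, while MED1, MED9, MED10, MED19 and MED21 were not. The tail had 1 of 4, MED16, while MED15, MED23 and MED24 were not. In the kinase module skd was bound, and kto, CycC and Cdk8 were not. Of 5 further subunits whose placement differs between descriptions of the complex, MED27 and MED30 were bound and MED25, MED26 and MED28 were not. The backbone gene MED14 was not bound. Every module of more than 1 gene held both bound and unbound members, and the modules were not tested against each other. The 95% exact binomial intervals of the head, middle, tail and kinase module shares each include 19.5%. With so few genes per module these intervals are wide, 8.52% to 75.5% for the middle and 0.631% to 80.6% for the tail. No conclusion on the modules is therefore drawn from them.

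Among TAF genes 3 of 15 (20%) were bound, and 26.7% ± 6.67 (SD, n = 3) in the replicates. The bound ones were Taf2, which with Taf1 contacts the initiator region of core promoters, and Taf4 and Taf5, both part of the core of TFIID. The others were Taf1, Taf3, Taf6, Taf7, Taf8, Taf9, Taf10, Taf10b, Taf11, Taf12, Taf13 and the testis paralogue Taf12L. The share at TAF genes was close to the 19.5% of all coding genes in the IDR list. The 95% exact binomial interval of the TAF share was 4.33% to 48.1%. When a summit counted only for the gene with the nearest start, 1 of 15 was bound, beside 14.8% of all coding genes.

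The strongest member peak lay at MED30 on 3L. Its IDR rank was 474 of 7089, and it ranked 476, 442 and 586 in replicates 1, 2 and 3, with the authors' signal values of 225, 188 and 135. The signal scale is not stated, so signals are compared only within 1 list. The summit lay 188 bp upstream of MED30 and 86 bp upstream of Rev1, a translesion DNA polymerase gene transcribed the other way.

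MED17, a core subunit of the head, ranked 917 in the IDR list and 976, 682 and 1276 in replicates 1, 2 and 3, with signals of 156, 153 and 89.6. Its summit lay at -101 bp, upstream of its start on 3R, and at -264 bp from that of CG12321, which faces it. MED27 ranked 978 in the IDR list and 772, 1053 and 1383 in the replicates, with signals of 180, 120 and 85.2. Both were in the top N of every replicate.

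The TAF peaks were among the stronger ones as well. Taf5 ranked 784 in the IDR list and 837, 719 and 925 in the replicates, with signals of 172, 148 and 108. Taf2 ranked 948 in the IDR list and 1308, 966 and 771 in the replicates, with signals of 131, 126 and 120. Taf4 ranked 1600 and then 1898, 1144 and 2131, with signals of 103, 115 and 65.6. All 3 genes were in the top N of each replicate. Taf2 was the only member with more than 1 IDR summit within 500 bp of its starts, the second 204 bp further upstream at rank 4493. Both Taf2 summits were covered by the same peak in replicate 1 (rank 1308) and in replicate 2 (rank 1048). The replicate 2 peak of rank 966 covered neither of them. In replicate 3 the covering peaks ranked 771 and 5461.

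MED31, a small and highly conserved middle subunit, ranked 1319 in the IDR list and 1091, 909 and 3950 in the replicates, with signals of 147, 131 and 42.2. MED4 ranked 2477, and 2072, 3335 and 3404 in the replicates, with signals of 98.1, 54.6 and 47.4. The peak of MED31 was weaker by rank in replicate 3 than in the others. The rank was also weakest in replicate 3 for 10 of the 13 bound members.

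The remaining bound members lay in the weaker part of the IDR list. MED7, a middle subunit, ranked 3575, and 3548, 2707 and 8405 in the replicates, with signals of 66.1, 63.6 and 23.6. MED16, a tail subunit, ranked 3913, and 4414, 3462 and 5817, with signals of 55.7, 53 and 31.6. MED6, a head subunit, ranked 4248, and 4015, 6891 and 2798, with signals of 59.9, 28.3 and 54.7. These genes were within the top N in all replicates except MED7 in replicate 3. For MED6 in replicate 2 the peak of rank 6891 was not the one that covered the IDR summit, which ranked 10351. The peak of skd ranked 4385, and 5186, 4191 and 4745, with signals of 48.3, 45.1 and 36.9. MED8, of the head, ranked last at 5632, and 5873, 4458 and 17440, with signals of 43.5, 42.6 and 12.6, so in replicate 3 it fell far below the top N. Over the bound members the median of the best rank was 1600, against 2808 over all bound coding genes. This median includes summits that lay nearer to a neighbour's start. These were at MED30, Taf5, Taf2, MED27, MED31, MED4 and skd, at ranks of 474 to 4385. The members nearest to their own summit were MED17, Taf4, MED7, MED16, MED6 and MED8, at ranks of 917 to 5632.

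**Figure D2:**
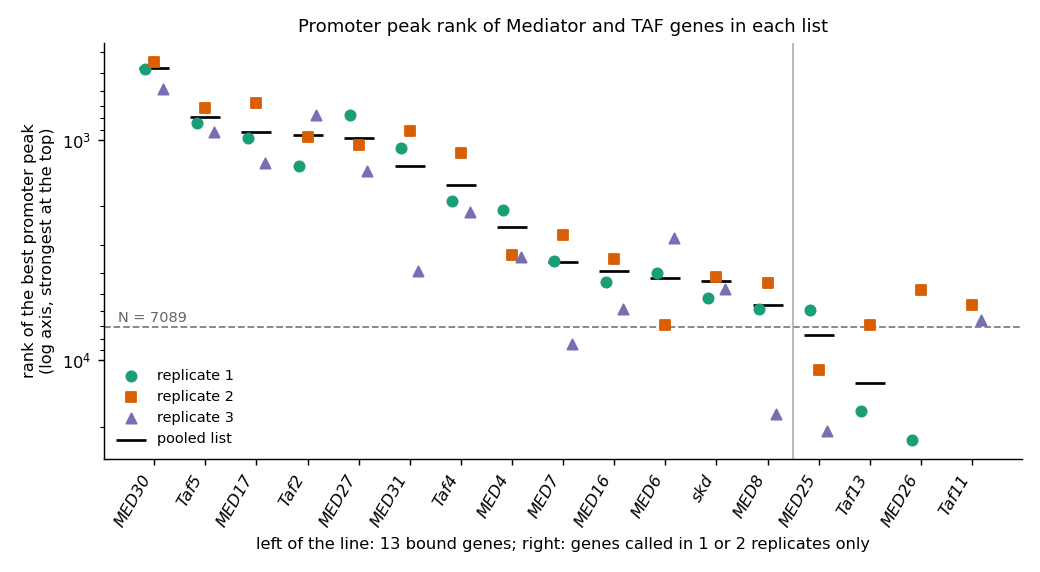
Each point is the rank of the strongest peak whose summit lay within 500 bp of the gene's starts, in each replicate and in the pooled list (log axis, rank 1 being the strongest). The dashed line marks rank 7089. Most bound genes lie above the line in all 3 replicates, with MED7 and MED8 below it in replicate 3.

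Positions repeated between replicates. The nearest replicate summit lay a median of 16 bp from the IDR summit over the 39 gene and replicate pairs, at most 95 bp away, and within 50 bp in 35 of them. The IDR list was made from the same libraries, so this closeness is not independent of them. At 8 of the 13 bound members the strongest IDR summit lay inside a top N peak of all 3 replicates (61.5%, 95% exact binomial interval 31.6% to 86.1%). Counted by summit it was 9 of 14 (64.3%), close to the 67.2% of all coding promoter summits and 67.4% of all IDR summits. The 9 include both Taf2 summits, which shared their covering peak in replicates 1 and 2. For Taf5 no replicate 1 peak covered the IDR summit, but a replicate 1 summit lay 62 bp from it. For MED27 no replicate 2 peak covered it, and a replicate 2 summit lay 25 bp away. For MED6 the replicate 2 peak that covered it ranked 10351, below the top N. At MED7 and MED8 the covering peak was below the top N in replicate 3.

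In the top N of at least 1 replicate there were 17 of 44 members, beside 26.8% of all coding genes. Of these 17, 4 were not in the IDR list. Taf11, a histone-fold subunit of TFIID, ranked 5603 in replicate 2 and 6546 in replicate 3 and had no peak at its start in replicate 1 or the pooled list. MED25 ranked 5898 in replicate 1 and 11042 and 20802 in the others. Taf13 ranked 6920 in replicate 2, 16926 in replicate 1 and had no peak in replicate 3. MED26, on the small and largely heterochromatic chromosome 4, ranked 4799 in replicate 2, 23070 in replicate 1 and had no peak in replicate 3. These genes were high in 1 or 2 libraries only. Taf8 came close, at rank 7110 in replicate 2, as did MED23, at rank 7112 in replicate 1. They were followed by MED19 at 7215 in replicate 3 and MED21 at 7363 in replicate 2.

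The edges of the rule were close to some members. The bound members farthest from their start were skd, with its summit 381 bp upstream, and MED8 at 221 bp. The nearest member outside the distance was MED15, a tail subunit, with an IDR summit 546 bp from its start. Below the IDR threshold, the pooled list held weaker peaks within 500 bp of MED25 (rank 7653, signal 79.1) and MED23 (rank 8039, signal 75.5). The weakest bound member, MED8, had a pooled signal of 106, and the lowest signal in the IDR list was 84.9. In all, 8 members had a pooled peak only below the threshold: MED10, MED19, MED23, MED25, MED28, Taf10, Taf10b and Taf13. Taf10 and Taf10b face each other across 45 bp and share 1 peak of rank 14982.

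The other 23 members had no pooled peak within 500 bp of a start. In the pooled list 47.7% of the members had a peak there, beside 38.9% of all coding genes. Of the 44 members, 15 also had no peak there in any of the 3 replicate lists of 30000 peaks, a count not made for all coding genes. These were CycC, kto, MED1, MED9, MED11, MED14, MED15, MED18, MED20, MED24, Taf1, Taf6, Taf7, Taf9 and Taf12L. They include MED14 and Taf1, whose sequences are printed above. The nearest IDR summit lay 3794 bp from the start of MED14 and 114079 bp from that of Taf1. For MED21, on 3L, the nearest IDR summit lay 2020357 bp away, although replicate 2 had a weak peak there at rank 7363. By chromosome arm, 3 of 5 members on 2R were bound, 5 of 15 on 3L and 5 of 11 on 3R, beside 18.8%, 20.3% and 19.3% of all coding genes on those arms. On 2L 0 of 7 were bound, on X 0 of 4 and on chromosome 4 0 of 2, beside 19.7%, 20.2% and 6.25%. On 2L the top N of replicates 1, 2 and 3 held 0, 2 and 1 members. With these numbers of genes per arm, the 95% exact binomial intervals reach up to 41% on 2L and 60.2% on X, and both include the share of all coding genes.

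All bound members have a divergent neighbour, a gene of any type that starts on the other strand within 1000 bp upstream of one of their starts. Such a neighbour was also present at 67.7% of the unbound members. Over coding genes it was present at 64% of the bound and 33.7% of the unbound ones. Of the 34 members with such a neighbour 13 (38.2%) were bound, beside 31.6% of all coding genes with one. Of the 10 members without one, 0 were bound, a count that leaves a share of up to 30% possible (3 counts of 10), beside 11.6% of all coding genes without one. In the replicates 40.2% ± 4.49 (SD, n = 3) of the members with a divergent neighbour were bound. Of those without one, 0, 1 and 0 were in the top N of replicates 1, 2 and 3, the 1 being MED26. The 10 were Cdk8, kto, MED11, MED14, MED21, MED24, MED26, Taf1, Taf9 and Taf12L. A divergent neighbour was present at 77.3% of the members and at 39.6% of all coding genes, so the arrangement moves with the members' share of bound genes, and its part in that share was not tested.

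Among members with a divergent neighbour, the gap between the facing starts was wider at the median for bound than for unbound ones, with no test made. The median gap was 278 bp at the 13 bound members (19 to 586 bp) and 115 bp at the 21 others (26 to 859 bp), so the ranges overlap. By width, 4 of 16 members with a gap of 0 to 150 bp were bound, beside 26.0% of coding genes with such a gap. From 151 to 500 bp 8 of 13 were bound, beside 37.4%, and from 501 to 1000 bp 1 of 5, beside 25.1%. Over all coding genes the median gaps were 304 bp at bound and 291 bp at unbound genes. The width classes were chosen after the members' values were seen. Bound members were longer at the median than unbound ones, at 2194 bp against 1305 bp, and the same medians over coding genes were 3468 bp and 1962 bp. A single annotated start was present at 10 of 13 bound members (76.9%) and 27 of 31 unbound members (87.1%), beside 52.2% of bound and 78.6% of unbound coding genes. More starts give a gene more window, and the part of this in the shares was not tested.

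At 8 of the bound members the summit lay between the start of the member and that of its facing neighbour. The neighbours were CG11170 at MED16, CG12321 at MED17, elm at MED27, Rev1 at MED30, Cap-H2 (a condensin II subunit) at MED7, CG8929 at MED8, Pex6 (a peroxisome biogenesis factor) at Taf5 and Pdss2 at skd. At Taf5 the summit was nearly midway, 151 bp from Taf5 and 150 bp from Pex6. At 3 members the summit lay past the neighbour's start and inside the neighbouring gene: CalpB (a calpain protease) at Taf2, CG9775 at MED31 and asRNA:CR43470 at MED4. The weaker Taf2 summit coincided with a CalpB start. The start of MED31 is also that of slx1.

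The last 2, MED6 and Taf4, shared their summit with no other gene. At MED6, a head subunit gene with 5 annotated starts, the summit lay 31 bp downstream of the nearest start, in an intron of the gene, and the neighbour Naa80 faces another of its starts. At Taf4 the summit lay 128 bp upstream of the nearest of 3 starts, also within an intron. MED6 was the only bound member whose summit lay downstream of the nearest start.

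When a summit counted only for the gene with the nearest start, 6 of 44 members were bound (13.6%), beside 14.8% of all coding genes. These were MED6, MED7, MED8, MED16, MED17 and Taf4. The 7 lost were MED4, MED27, MED30, MED31, skd, Taf2 and Taf5, whose summits lay nearer to the neighbour. For these genes the lists cannot tell which of the facing genes a peak belongs to. The member share was above that of all coding genes with shared summits counted for each gene and below it with 1 gene per summit.

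**Figure D3:**
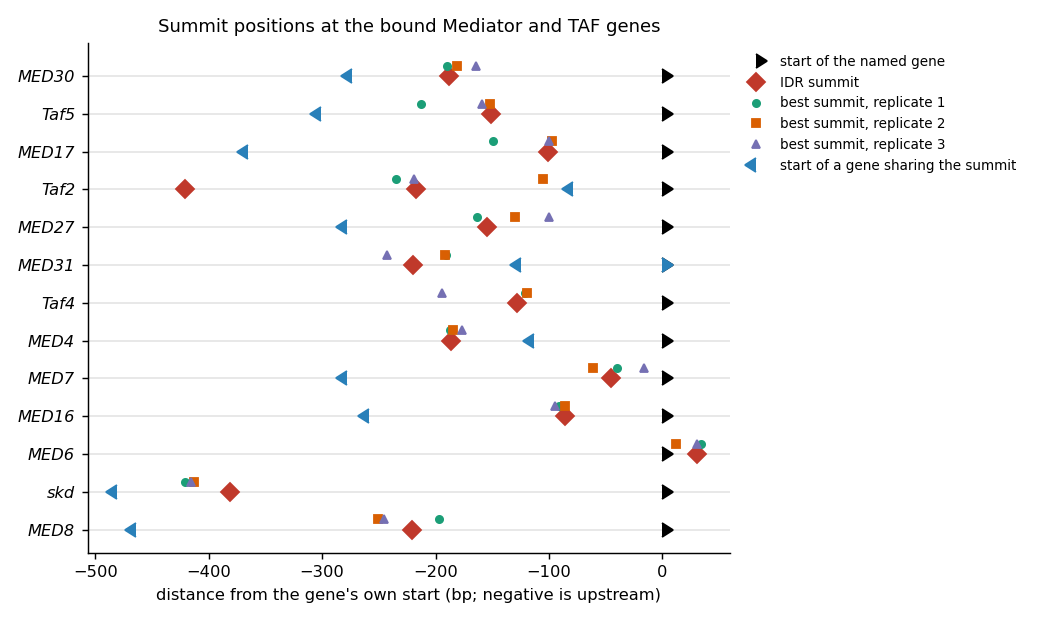
Each line is 1 bound gene, with its nearest start at 0 bp and transcription to the right. Diamonds are IDR summits, small symbols the replicates' strongest promoter summits, and blue triangles the starts of genes within 500 bp of the same summit, pointing in their direction of transcription. The strongest IDR summit lies upstream of the member at 12 of 13 genes, and at 8 of them between the facing starts.

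Summits lay upstream of the member's start at 12 of the 13 bound genes (92.3%), with a median of -155 bp. Over all bound coding genes 85.6% lay upstream, with a median of -153 bp. Replicates 1, 2 and 3 gave 92.9%, 93.8% and 91.7% upstream. The median offset of the members was thus close to that of bound coding genes at large.

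The DNA at the members' summits was rich in A and T, as in the sequences printed above. Over the 14 summits the median share of A and T in 100 bp was 72% (55% to 89%), against 68% at the 2359 summits within 500 bp of a coding start and 69% at all IDR summits. Of the 14, 11 held 70% or more. The highest value was that of the stronger Taf2 summit (89%), followed by Taf5 (84%), MED17 (83%) and MED8 (81%). The lowest were MED6 (55%), the weaker Taf2 summit (62%) and MED4 (68%). In the replicates' own top N peaks at the members the median was 70.5%, 72% and 75%. At a fixed place 150 bp upstream of the starts, bound members had a median of 73% (55% to 84%) and unbound members 65.5% (46% to 84%). The same medians were 67% for bound and 64% for unbound coding genes. The ranges of bound and unbound members overlap.

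**Figure D4:**
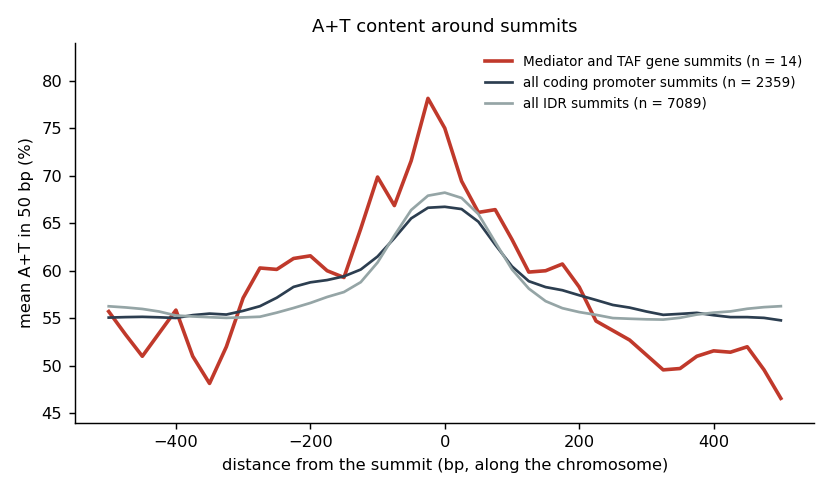
The mean percentage of A and T in 50 bp windows is drawn against the distance from the summit for the members' 14 summits, for all summits at coding starts and for all IDR summits. Both larger sets are highest at the summit, and the members' curve is highest at -25 bp. The curve of the members rests on 14 positions and is uneven.

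A set of 6 short strings of promoter elements was searched, on either strand, within 200 bp centred on each summit. The TATA box string TATAAA was present at 7 of the 14 member summits (50%), against 38.9% of coding promoter summits. Members with it were MED8, MED17, MED27, MED31, Taf5 and both summits of Taf2. The Ohler 7 string CATCNCTA was present at MED7 and skd (14.3%, against 5.17%). The DRE string TATCGATA, bound by the factor DREF, was present at MED17 alone (7.14%, against 4.49%). The GAGA string GAGAG was present at MED30 alone (7.14%, against 23.8%). The M1BP string GGTCACACT and the E-box CACGTG were present at 0 of the 14, against 1.65% and 1.87%. TATAAA is itself made of A and T only. No string was tested, and a match or its absence says nothing of whether a factor binds there.

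The rest of the transcription machinery was counted from lists of genes known to act beside Mediator and TFIID. General transcription factors were bound at 5 of 21 genes (23.8%, and 30.2% ± 5.5, SD, n = 3, in the replicates), beside 19.5% of all coding genes. The strongest were Ssl1, a TFIIH subunit, at rank 13, TfIIA-L at 2170, TfIIB at 2553 and Trf2, a TBP-related factor, at 5620. Tbp, which the TAFs surround, was not bound. RNA polymerase II subunit genes were bound at 4 of 12 (33.3%, and 36.1% ± 4.81, SD, n = 3), with Polr2B at rank 595, Polr2H at 1498, Polr2J at 1573 and Polr2I at 4776. The genes mia, sa, can and nht, which encode TAF paralogues of the testis, were bound at 0 of 4, as was the paralogue Taf12L.

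Subunits of SAGA, which shares several TAFs with TFIID, were bound at 8 of 17 genes (47.1%, 95% exact binomial interval 23% to 72.2%), beside 19.5% of all coding genes. The list holds none of the TAF genes counted as members above, so the shared TAFs are left out of this count. The count was also 8 in each replicate. The strongest were Gcn5, the acetyltransferase, at rank 201, Ada2b at 586, wda at 1526 and Sgf11 at 2061. Genes of elongation and promoter-proximal pausing were bound at 8 of 14 (57.1%, 95% exact binomial interval 28.9% to 82.3%, and 45.2% ± 4.12, SD, n = 3, in the replicates), with Nelf-E at rank 852, TH1 (the fly NELF-D) at 1769, lilli at 4191 and NELF-B at 4204. In the top N of all 3 replicates there were 7 of the 17 SAGA genes and 3 of the 14 elongation and pausing genes, beside 14.5% of all coding genes. By nearest start alone the counts were 1 of 21 for general factors, 3 of 12 for RNA polymerase II, 4 of 17 for SAGA and 4 of 14 for elongation and pausing, beside 14.8% of all coding genes. These lists were chosen with earlier results of these data known, and were not tested against the members or against other genes.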

How the data were processed

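ChIP-seq peaks of CG44002-eGFP were taken from the lists deposited for 3 biological replicates of whole prepupae, sheared to 200 to 800 bp per the labels. The deposited value used is the authors' signal per peak, of unstated scale, in narrowPeak lists on dm6: 1 list of 30000 peaks per replicate, 1 from the pooled replicates, and 1 IDR list of 7089 peaks, all of which are the highest-signal pooled peaks. Per the deposited inventory, each list was called against 1 control. Aligner, peak caller and IDR threshold were not given in the sources used here. Read depth is unknown. The dm3 lists were not used here.

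Peaks were ranked by signal (rank 1 strongest). Starts came from Ensembl release 115 (BDGP 6.54) on 6 arms without transposable elements, 13945 coding genes. Summits are peak start plus offset. Sequence came from RefSeq release 6. Module, list and string choices, and the members, were made with earlier results of these data known. All 112 listed symbols were matched, some by older names, and Taf3, Taf9 and Taf12L were sorted by hand. MED29 is listed as ix, which the name rule leaves out. Named genes are every member, up to 4 bound genes of each list, and genes that share a member's summit. No tests were run, since there is 1 group and the members' state comes from the lists described. The assignment of summits to genes was checked on simulated summits. Alternatives were the window, the start counted, the list and each replicate left out. Python 3.11.15, pandas 2.3.3 and SciPy 1.17.1 were used.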

Additional observations from a re-analysis of the deposited data

How the results depend on the processing

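Of 44 members, 13 were bound in the IDR list. The count was 9 with a 200 bp window, 14 with a 1000 bp window, 12 with the most 5′ start only and 14 when any overlap of the peak with the window counted, beside 12.7%, 23.2%, 16.8% and 21.2% of all coding genes (19.5% otherwise). It was 6 with the nearest start only, 8 in the stronger part of the IDR list and 21 in the pooled list of 30000 peaks. The shares of all coding genes under these last 3 settings were 14.8%, 11.8% and 38.9%. Without replicate 1, 2 or 3 the count was 9 to 10, beside 14.6%, 15.2% and 15.9% of all coding genes. MED27, MED6, MED7 and MED8 were lost without replicate 1, MED7, MED8 and Taf5 without replicate 2, and MED27, MED6 and Taf5 without replicate 3. The IDR list itself still came from all 3 libraries. Each lost gene had its IDR summit outside the top N peaks of a replicate that was kept. That was replicate 2 for MED27 and MED6, replicate 3 for MED7 and MED8, and replicate 1 for Taf5. These losses are therefore no measure of dependence on the replicate left out. The mean over replicates was 14 ± 2 (SD, n = 3), and 11, 15.3 and 18.7 with a 200 bp window, a 1000 bp window and the top 14178 peaks. With a replicate left out, the median rank of the member summits (2038) was 1460 to 2477, the median A and T (72%) was 71% to 75.5%, and the upstream share (92.3%) was 90% to 100%. The upstream share was 88.9% with a 200 bp window. The cause of these shifts was not tested, though each setting by its construction changes which summits enter. Read depth is unknown, so the absence of a peak cannot be read as absence of occupancy. No paired analysis was possible because the series holds 1 group.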

Other observations

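Away from promoters, IDR summits inside the members' gene bodies were found in 1 gene. The gene skd, the fly MED13, spans 34621 bp and held 4 summits farther than 500 bp from its starts, all in introns. They lay 987, 14752, 16397 and 17562 bp downstream of the nearest start, at IDR ranks of 6603, 3585, 1372 and 6586. The summit at 16397 bp was stronger by rank than that at the skd promoter (4385). The summits at 14752 and 16397 bp were among the 7089 strongest peaks (the top N) of each replicate, that at 17562 bp in the top N of 2 and that at 987 bp in the top N of 1. The other kinase module genes kto, CycC and Cdk8, of 8331, 1202 and 1591 bp, held 0 summits in their gene bodies. The gene skd is the longest of the members, and the part of gene length in this count was not tested. The share of all coding genes with such summits was not counted.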
